A study of Mus musculus with 3 samples.

Results

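Ly6c2, Chil3, Plac8, F13a1, C1qa, C1qb, C1qc, Mrc1, Selenop and Apoe, genes whose levels change as a monocyte becomes a tissue macrophage, were followed cell by cell in the inflamed mouse colon. They are 10 of the 32285 genes in the count matrices and were taken by symbol; all 10 were found. Ly6c2, Chil3, Plac8 and F13a1 form the monocyte side and the other 6 the macrophage side. Levels and co-detection were read in cell barcodes with at least 1 UMI (unique molecular identifier, 1 captured RNA molecule) of Lyz2, the lysozyme gene of myeloid cells, and 0 UMIs of Csf3r, the receptor for the neutrophil growth factor G-CSF. These Lyz2+ Csf3r- barcodes, named gate barcodes on some plot axes, numbered 425 of 5852 kept barcodes after DATK32, 646 of 5890 after MECA-367 and 560 of 7367 after rat IgG. A kept barcode had at least 500 UMIs, at least 200 genes and at most 10% of its UMIs from mitochondrial genes.

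The cells were lamina propria mononuclear cells of the large intestine of C57/BL6J mice. Every mouse drank 1.5% dextran sulfate sodium (DSS), which injures the colonic epithelium, for 7 days and plain water for 3 days more. Alongside, mice received 250 µg intraperitoneal antibody 3 times a week: DATK32, MECA-367, or rat IgG as the isotype control, so no group is free of colitis or of injected antibody. Viable CD45+ cells were sorted and made into 1 droplet 3' RNA library per treatment; the number, age and sex of the mice behind a library are not given in the sources used here. The labels call DATK32 a surrogate of ontamalimab and MECA-367 a surrogate of vedolizumab. As generally known, however, the DATK32 clone recognises the integrin alpha4beta7 and the MECA-367 clone recognises MAdCAM-1, the opposite assignment, and results are therefore given by clone.

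Ly6C-high monocytes leave the blood, enter the colonic lamina propria and differentiate there through intermediate stages that gain MHC class II and lose Ly6C. Mature gut macrophages are known for complement C1q, the mannose receptor and scavenging functions. In colitis the inflow of monocytes is large, and early stages accumulate beside mature cells.

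Each treatment is 1 library, so no difference below has a replicate check and no p-value was computed. Levels are CPM, UMIs of a gene scaled to a common total, of the summed Lyz2+ Csf3r- barcodes with exact Poisson 95% intervals, and shares of barcodes have exact Clopper-Pearson 95% intervals; both cover counting error only. A gene was called higher or lower at a fold of at least 1.5 with intervals apart, among 7489 genes with at least 50 counts over the 3 libraries. The summed barcodes held 1081926 UMIs in DATK32, 2178688 in MECA-367 and 1202692 in rat IgG, with medians of 1715 (DATK32), 2599.5 (MECA-367) and 1338 (rat IgG) UMIs per barcode. Because depth differed, shares were also read after thinning each barcode to 1000 UMIs, which kept 350 DATK32, 605 MECA-367 and 393 rat IgG barcodes. In summed counts, fewer cells of a kind and less RNA per cell cannot be told apart. No barcode sequence was shared between the Lyz2+ Csf3r- sets of any pair of libraries.

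The myeloid label held for most barcodes and was not pure. At least 2 of 8 myeloid markers were found in 88.5% of DATK32, 91.8% of MECA-367 and 85.9% of rat IgG barcodes. At least 2 of 8 neutrophil markers were found in 32.5% (DATK32), 65.02% (MECA-367) and 28.8% (rat IgG), and their summed level was 15496 (DATK32), 57312 (MECA-367) and 11243 (rat IgG) CPM, with all 8 detected in each library. At least 2 T cell markers were found in 16.0% (DATK32), 10.99% (MECA-367) and 14.5% (rat IgG) of the same barcodes, 2 or more epithelial markers in 16.5% (DATK32), 16.6% (MECA-367) and 15.7% (rat IgG), and 2 or more of 8 dendritic cell markers in 0.706% (DATK32), 1.08% (MECA-367) and 2.32% (rat IgG) (Siglech at 0 in MECA-367). Lyz2 itself was sparse, with a median of 3 UMIs a barcode in DATK32, 3 in MECA-367 and 2 in rat IgG: 28.9% of DATK32, 27.6% of MECA-367 and 37.3% of rat IgG barcodes had a single Lyz2 UMI. The part of neutrophil or other RNA in the levels below was not tested beyond the settings given beside them.

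The sequence just before the start of both genes used to mark the monocyte side, Ly6c2 and Chil3, and of 2 neighbouring C1q genes is shown because these genes define the co-detection groups below. They are RefSeq promoter windows on GRCm38.p6 (the mm10 build), minus strand, 5' to 3': 250 bases at chr15:75111972-75112221 for Ly6c2, at chr3:106167565-106167814 for Chil3 and at chr4:136886201-136886450 for C1qb, and for C1qc the 99 bases at chr4:136893066-136893164 that lie outside the annotated gene. Capitals mark GAGGAAGT, a PU.1-type ETS motif, on either strand.
Ly6c2: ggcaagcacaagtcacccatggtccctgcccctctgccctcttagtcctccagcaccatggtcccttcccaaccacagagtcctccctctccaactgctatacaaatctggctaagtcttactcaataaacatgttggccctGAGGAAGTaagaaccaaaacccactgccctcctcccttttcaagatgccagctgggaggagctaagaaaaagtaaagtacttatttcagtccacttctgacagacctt
Chil3: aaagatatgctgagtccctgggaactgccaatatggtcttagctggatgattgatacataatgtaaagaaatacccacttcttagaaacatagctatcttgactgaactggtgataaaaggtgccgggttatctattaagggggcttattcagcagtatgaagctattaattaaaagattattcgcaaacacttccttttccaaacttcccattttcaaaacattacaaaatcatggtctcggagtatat
C1qb: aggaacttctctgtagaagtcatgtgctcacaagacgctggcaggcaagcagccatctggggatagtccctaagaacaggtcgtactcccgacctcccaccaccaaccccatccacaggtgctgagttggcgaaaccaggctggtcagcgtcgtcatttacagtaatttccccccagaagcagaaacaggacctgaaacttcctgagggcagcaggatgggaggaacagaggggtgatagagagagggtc
C1qc: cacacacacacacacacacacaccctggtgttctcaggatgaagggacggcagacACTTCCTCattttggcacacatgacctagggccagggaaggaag

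RefSeq windows were at hand for 9 of the 10 genes. GAGGAAGT was found within the 250 upstream bases of Ly6c2, C1qc and Selenop and in 2.44% of all 32851 mouse windows. TTGCNNAA, a C/EBP-type motif, was found for Plac8 and in 9.56% of all windows; TGCTGAC, a half-site of the Maf recognition element, was found for none of the 9 genes and in 3.81% of all windows. Both strands were searched, and no window of the 9 genes held more than 1 of the 3 motifs. The C1q genes lie side by side on chromosome 4 on the minus strand: C1qb at chr4:136880129-136886187, C1qc at chr4:136889804-136893065 and C1qa at chr4:136895917-136898803 (GENCODE annotation of GRCm38), 18675 bases in all. Ly6c2 (chr15:75108158-75111970) and Chil3 (chr3:106147554-106167564) have close copies. Of the 50-base windows in the last 500 bases of the transcript, 20.6% for Ly6c2 are also found in other genes, mainly Ly6c1, and 17.1% for Chil3, mainly Chil4. No shared window was found for the other 8 genes. Counts of both genes are therefore uncertain to the extent that reads from shared windows were not counted or were counted for a copy. Chil4 had 0 counts in the Lyz2+ Csf3r- barcodes of every library, which allows up to 2.77 (DATK32), 1.38 (MECA-367) and 2.49 (rat IgG) CPM. Ly6c1 had 23.1 CPM in DATK32, 29.4 in MECA-367 and 33.3 in rat IgG.

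On the monocyte side, all 4 genes were called higher in DATK32 than in rat IgG, and Chil3 and Plac8 were called higher in MECA-367 than in rat IgG. Over all 7489 genes, 1.79% were called higher and 2.95% lower in DATK32 (4.74% in all), and 4.87% higher and 13.2% lower in MECA-367 (18.1% in all), each against rat IgG. Ly6c2, the surface marker of inflammatory monocytes, was at 627 CPM (580.4 to 676) in DATK32, 443 CPM (415 to 472) in MECA-367 and 358 CPM (325 to 394) in rat IgG. The 3 intervals lay apart, with DATK32 highest. At least 1 Ly6c2 UMI was found in 49.4% of DATK32, 54.2% of MECA-367 and 33.6% of rat IgG barcodes, and after thinning in 37.4% (DATK32), 28.9% (MECA-367) and 23.2% (rat IgG). The unthinned share was thus highest in MECA-367, whose barcodes were deepest, while the thinned share and the CPM were highest in DATK32.

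Chil3, which encodes a chitinase-like protein of monocytes and neutrophil precursors, had 537 CPM (494 to 583) in DATK32, 741 CPM (705 to 778) in MECA-367 and 201 CPM (177 to 228) in rat IgG. Its thinned share was 27.1% in DATK32, 37.2% in MECA-367 and 15.01% in rat IgG. The MECA-367 library stood highest and rat IgG lowest on both scales, and barcodes with Chil3 held a mean of 4.18 UMIs in DATK32, 4.75 in MECA-367 and 2.28 in rat IgG.

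Plac8, a gene of myeloid and other leukocytes and of gut epithelium, was found in most barcodes: 2759 CPM (2661 to 2860) in DATK32, 4024 CPM (3941 to 4110) in MECA-367 and 1816 CPM (1741 to 1894) in rat IgG. F13a1, the catalytic subunit of coagulation factor XIII, was at 147 CPM (125 to 172) in DATK32, 84.0 CPM (72.3 to 97.1) in MECA-367 and 59.0 CPM (46.1 to 74.5) in rat IgG. F13a1 was thus highest in DATK32, Plac8 in MECA-367. After thinning, 14.0% of DATK32 barcodes had F13a1, against 7.11% of MECA-367 and 7.12% of rat IgG barcodes.

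As log2 ratios, DATK32 exceeded rat IgG by 0.81 for Ly6c2, 1.41 for Chil3, 0.60 for Plac8 and 1.30 for F13a1. Plac8 sat at the edge of the rule and lost the call under 7 of 13 settings (for example 0.37 in barcodes with at least 3 Lyz2 UMIs), and Ly6c2 lost it in that same setting (0.36). For MECA-367 against rat IgG the log2 ratios were 1.88 for Chil3, 1.15 for Plac8, 0.30 for Ly6c2 and 0.50 for F13a1, the last pair not called. In this pair the median gene stood at -0.27, and TMM scaling moved it to 0.06; with TMM, Ly6c2 (0.63) and F13a1 (0.82) were called higher too. Without barcodes carrying 2 or more neutrophil markers, Ly6c2 in MECA-367 stood at -0.29 against rat IgG and Chil3 at 1.57, and after thinning F13a1 stood at -0.19. The Plac8 call was lost without barcodes holding markers of other classes (0.53).

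Set against MECA-367, the DATK32 library was called higher for F13a1 (log2 ratio 0.81) and not for Ly6c2 (0.50), Chil3 (-0.46) or Plac8 (-0.54); 5.59% of all genes were called higher and 3.14% lower (8.73% in all). Ly6c2 passed the rule when barcodes with neutrophil markers were left out (1.14) or depth was thinned (0.66). With TMM scaling, Chil3 (-0.68) and Plac8 (-0.76) were called lower in DATK32 than in MECA-367. DATK32 and MECA-367 share the rat IgG control in the comparisons above.

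**Figure D1:**
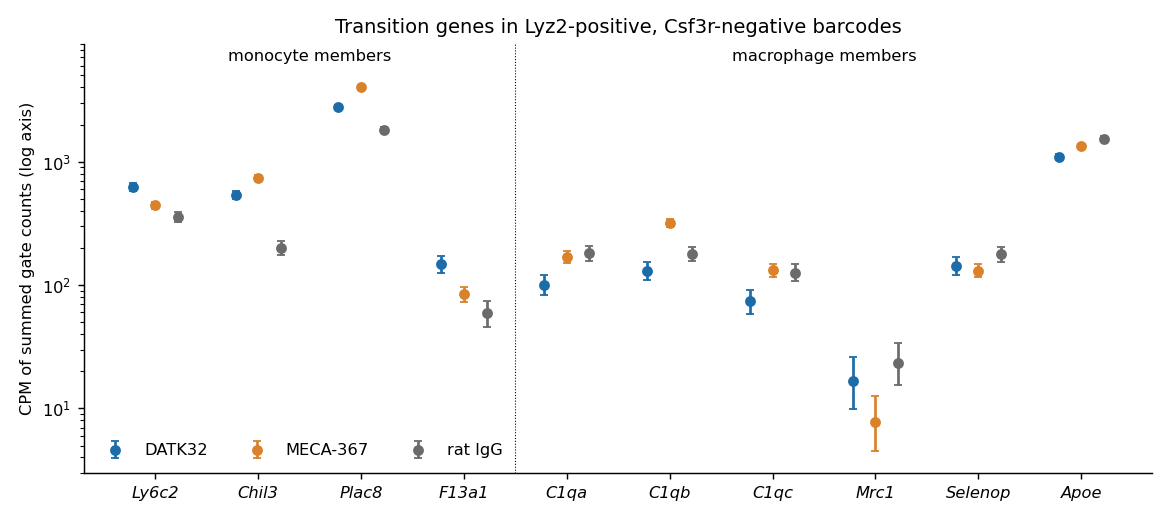
Levels of the 10 genes in summed Lyz2+ Csf3r- barcodes, as CPM on a log axis with exact Poisson 95% intervals, 1 point per library. All 4 monocyte genes lie above rat IgG in DATK32, and the 3 C1q genes are lowest in DATK32.

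On the macrophage side, the C1q genes were lowest in DATK32, and C1qb was highest in MECA-367. They encode the chains of complement component C1q, made in tissues largely by macrophages. C1qa was at 101 CPM (82.7 to 122) in DATK32, 169 CPM (152 to 187) in MECA-367 and 181 CPM (158 to 207) in rat IgG. C1qb was at 130.3 CPM (110 to 154) in DATK32, 317 CPM (294 to 341) in MECA-367 and 179 CPM (156 to 204) in rat IgG. C1qc was at 73.9 CPM (58.6 to 92.03) in DATK32, 132 CPM (117 to 148) in MECA-367 and 126 CPM (107 to 148) in rat IgG. For C1qa and C1qc the DATK32 interval lay below both other libraries, whose intervals overlapped; for C1qb the 3 intervals lay apart, those of DATK32 and rat IgG narrowly.

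Thinned shares put the C1q genes in few barcodes: C1qb in 8.86% of DATK32, 17.5% of MECA-367 and 15.5% of rat IgG barcodes, C1qa in 5.14% (DATK32), 9.59% (MECA-367) and 14.5% (rat IgG), and C1qc in 3.71% (DATK32), 8.43% (MECA-367) and 9.67% (rat IgG). Against rat IgG, the DATK32 log2 ratios were -0.84 for C1qa and -0.76 for C1qc, both called lower, and -0.45 for C1qb, not called. C1qb was called lower under 5 of 13 settings, thinning among them (-1.02). In MECA-367 against rat IgG, C1qb was called higher (0.82), and C1qa (-0.10) and C1qc (0.06) were not called. The C1qb call was lost after thinning (0.44) and without barcodes holding 2 or more markers of T, B, plasma, epithelial, stromal or endothelial cells (0.47). DATK32 against MECA-367 gave lower calls for all 3, at -0.74 for C1qa, -1.27 for C1qb and -0.82 for C1qc, and these were kept in all 13 settings that could call them.

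Apoe, the apolipoprotein that macrophages secrete, was at 1087 CPM (1026 to 1151) in DATK32, 1339 CPM (1291 to 1388) in MECA-367 and 1538 CPM (1469 to 1610) in rat IgG. The intervals lay apart in the order DATK32, MECA-367, rat IgG, but no ratio reached the fold of 1.5. A few barcodes carried much of it: the top 10 held 46.1% of Apoe UMIs in DATK32, 34.0% in MECA-367 and 36.1% in rat IgG. DATK32 stood at a log2 ratio of -0.50 to rat IgG, not called, and was called lower under 6 of 13 settings, down to -1.54 without barcodes holding markers of other classes.

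Selenop, a secreted selenium carrier, was at 143 CPM (122 to 168) in DATK32, 131 CPM (116 to 147) in MECA-367 and 177 CPM (154 to 203) in rat IgG. Its log2 ratios to rat IgG were -0.30 in DATK32 and -0.44 in MECA-367, and it was not called in any comparison; it was called lower than in rat IgG under 2 of 13 settings in DATK32 (-0.86 without barcodes holding markers of other classes, -1.02 thinned to 500 UMIs) and under 3 of 13 in MECA-367 (down to -1.01). Mrc1, the mannose receptor CD206 of mature macrophages, was scarce: 18 UMIs in DATK32, or 16.6 CPM (9.86 to 26.3), 17 UMIs in MECA-367, or 7.80 CPM (4.55 to 12.5), and 28 UMIs in rat IgG, or 23.3 CPM (15.5 to 33.6). It was called lower in MECA-367 than in rat IgG (-1.55), a call lost under 6 of 13 settings, and the DATK32 ratio to rat IgG (-0.46, not called) turned to 0.94 after thinning. DATK32 against MECA-367 gave 1.09 for Mrc1, 0.14 for Selenop and -0.30 for Apoe, none called; Apoe was called lower under 4 of 13 settings, at -1.07 without neutrophil-marked barcodes and -1.11 without those holding markers of other classes.

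Across both sides, 6 of the 10 genes were called in DATK32 against rat IgG (4 higher, 2 lower), beside 4.74% of all 7489 genes. In MECA-367 against rat IgG 4 were called (3 higher, 1 lower), beside 18.1% of all genes. In DATK32 against MECA-367 4 were called (1 higher, 3 lower), beside 8.73% of all genes. In DATK32 against rat IgG the median log2 ratio was 1.05 for the 4 monocyte genes and -0.48 for the 6 macrophage genes, beside -0.07 over all 7489 genes (0.04 with TMM scaling). In MECA-367 against rat IgG these medians were 0.82 and -0.15, beside -0.27 over all genes (0.06 with TMM). In DATK32 against MECA-367 they were 0.02 and -0.52, beside 0.18 over all genes (-0.04 with TMM).

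Cell by cell, barcodes were placed by detection of C1q (any of C1qa, C1qb, C1qc) and of Ly6c2 or Chil3. Barcodes with Ly6c2 or Chil3 and no C1q made up 50.1% (45.3 to 54.97) of DATK32, 52.5% (48.5 to 56.4) of MECA-367 and 34.5% (30.5 to 38.6) of rat IgG barcodes. Barcodes with C1q and neither Ly6c2 nor Chil3 made up 7.53% (5.21 to 10.5) of DATK32, 9.13% (7.03 to 11.6) of MECA-367 and 14.3% (11.5 to 17.5) of rat IgG barcodes. Both sides were found together in 7.53% (5.21 to 10.5) of DATK32, 18.7% (15.8 to 21.96) of MECA-367 and 7.50% (5.46 to 10.0) of rat IgG barcodes. Neither side was found in 34.8% of DATK32, 19.7% of MECA-367 and 43.8% of rat IgG barcodes. The MECA-367 library thus stood highest for barcodes with both sides and lowest for those with neither.

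Depth moved with these groups. Unthinned barcodes with both sides had medians of 3812.5 UMIs in DATK32, 3731 in MECA-367 and 1597 in rat IgG, against 1841 (DATK32), 2619 (MECA-367) and 1392 (rat IgG) for those with Ly6c2 or Chil3 only. After thinning, both sides were found in 3.14% (1.58 to 5.55) of DATK32, 10.1% (7.80 to 12.8) of MECA-367 and 4.58% (2.74 to 7.14) of rat IgG barcodes. C1q alone was then found in 7.71% (5.15 to 11.03) of DATK32, 11.1% (8.69 to 13.8) of MECA-367 and 16.5% (13.003 to 20.6) of rat IgG barcodes. Ly6c2 or Chil3 alone was found in 45.4% (40.1 to 50.8) of DATK32, 42.5% (38.5 to 46.5) of MECA-367 and 26.5% (22.2 to 31.1) of rat IgG barcodes.

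Under the same rule of size and interval, the C1q only share was called lower in DATK32 than in rat IgG, with a log2 ratio of -0.91 unthinned and -1.08 thinned; the call was kept under 11 of 14 settings. The share with both sides was called higher in MECA-367 than in rat IgG, at 1.31 unthinned and 1.11 thinned, and lower in DATK32 than in MECA-367, at -1.30 and -1.63. Both calls were lost when all 10 genes defined the sides (0.18 and -0.30). The call in MECA-367 against rat IgG was also lost after thinning to 500 UMIs (1.09). The Ly6c2 or Chil3 only share was called higher in MECA-367 than in rat IgG, at 0.60 unthinned and 0.68 thinned, a call kept under 7 of 14 settings. In DATK32 against rat IgG it was 0.54, not called, and 0.78 thinned, called. After thinning, at least 2 neutrophil markers were found in 17.0% of DATK32, 52.9% of MECA-367 and 17.3% of rat IgG barcodes with Ly6c2 or Chil3 only. In barcodes with neither side they were found in 23.5% (DATK32), 38.2% (MECA-367) and 22.3% (rat IgG). The Ly6c2 or Chil3 only group thus stood highest for neutrophil markers in MECA-367 alone. Without barcodes with 2 or more neutrophil markers the MECA-367 ratio to rat IgG was 0.19 and the DATK32 ratio 0.64.

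**Figure D2:**
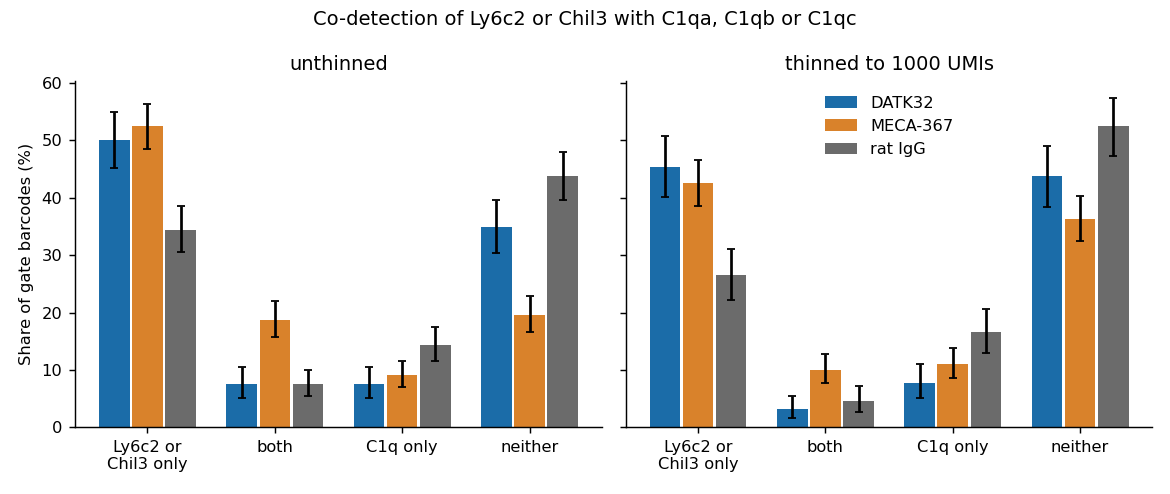
Share of Lyz2+ Csf3r- barcodes in each co-detection group, unthinned (left) and thinned to 1000 UMIs (right); bars show DATK32, MECA-367 and rat IgG, and lines exact 95% binomial intervals. Rat IgG has the largest C1q only share, and MECA-367 the largest share with both sides.

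The share of barcodes with both sides was below the product of the single shares in every library. That product was 5.27% in DATK32, 11.1% in MECA-367 and 6.56% in rat IgG after thinning. Unthinned it was 8.68% (DATK32), 19.8% (MECA-367) and 9.14% (rat IgG). In every library and at both depths the product lay within the interval of the observed share, so no shortfall beyond counting error is shown. After thinning the observed share over that product was 0.60 in DATK32, 0.91 in MECA-367 and 0.70 in rat IgG, and unthinned it was 0.87 (DATK32), 0.94 (MECA-367) and 0.82 (rat IgG). Among thinned barcodes with C1q, 28.9% in DATK32, 47.7% in MECA-367 and 21.7% in rat IgG had Ly6c2 or Chil3 as well, against 51.0% (DATK32), 53.9% (MECA-367) and 33.5% (rat IgG) of those without C1q. Single cells with both RNAs and droplets with more than 1 cell cannot be told apart here, since the doublet caller marked 0 barcodes in each library and did not work. Without the barcodes of highest doublet score, the log2 ratio of the share with both sides was 1.25 in MECA-367 against rat IgG.

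Taken pair by pair over 45 pairs, genes of 1 side were found together more often than the product of their shares. Where at least 5 joint barcodes were awaited from that product in every library, all 5 monocyte pairs were above 1, with medians of 1.27 in DATK32, 1.15 in MECA-367 and 1.25 in rat IgG. All 3 such macrophage pairs were above 1 too, with medians of 2.32 (DATK32), 2.08 (MECA-367) and 1.92 (rat IgG). Of 13 pairs across the sides, 11 in DATK32, 8 in MECA-367 and 11 in rat IgG were below 1, with medians of 0.73 (DATK32), 0.95 (MECA-367) and 0.91 (rat IgG). The lowest was Ly6c2 with C1qa, at 0.15 in DATK32 and 0.48 in MECA-367, while in rat IgG it was Chil3 with C1qb, at 0.44.

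Ly6c2 with Chil3 gave 1.57 in DATK32, 1.26 in MECA-367 and 2.05 in rat IgG. C1qa with C1qb gave 8.15 (DATK32), 4.33 (MECA-367) and 4.18 (rat IgG), although only 1.6 joint barcodes were awaited in DATK32. C1qb with Apoe gave 2.32 (DATK32), 2.08 (MECA-367) and 1.92 (rat IgG). Apoe with Chil3 lay slightly above 1, at 1.14 in DATK32, 1.22 in MECA-367 and 1.12 in rat IgG. Apoe with Ly6c2 lay below 1, at 0.87 in DATK32, 0.87 in MECA-367 and 0.97 in rat IgG. Shared depth, removed by thinning, and the shared Lyz2 threshold are common to all these barcodes.

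**Figure D3:**
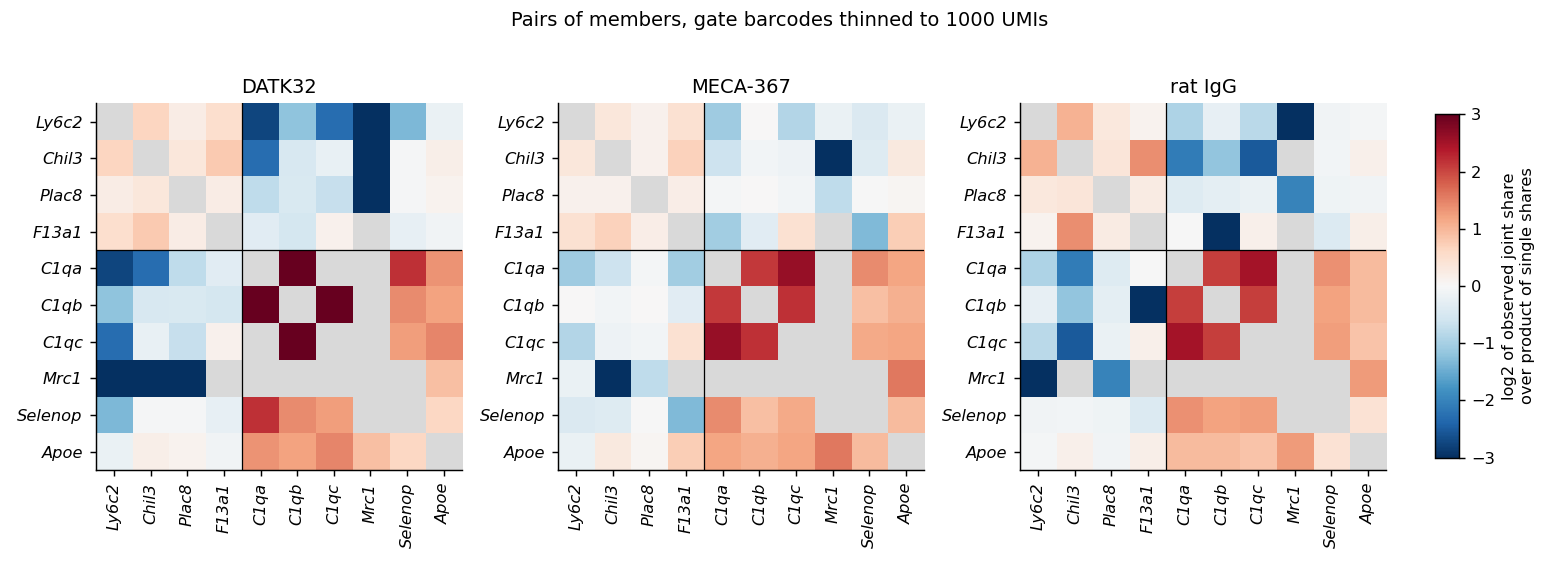
Observed joint share of each pair over the product of its single shares, as log2, in thinned Lyz2+ Csf3r- barcodes; colours stop at -3 and 3, and grey marks pairs with fewer than 1 joint barcode awaited. Lines divide the monocyte from the macrophage genes; red cells lie within each side, and the cells across the sides are mostly blue.

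Members that did not define the groups differed between them. Apoe was found in 77.8% of C1q only barcodes against 29.6% of Ly6c2 or Chil3 only barcodes in DATK32, 68.7% against 27.6% in MECA-367, and 80.0% against 38.5% in rat IgG, all thinned. Selenop was found in 33.3% against 5.66% in DATK32, 26.9% against 6.61% in MECA-367, and 27.7% against 9.62% in rat IgG. For both genes the intervals lay apart in all 3 libraries. Mrc1 was found in 5 of 27 C1q only barcodes in DATK32, 3 of 67 in MECA-367 and 5 of 65 in rat IgG. Among barcodes with Ly6c2 or Chil3 only it was found in 0 of 159 in DATK32, which allows a share of up to 1.89%, 0 of 257 in MECA-367 (up to 1.17%) and 0 of 104 in rat IgG (up to 2.88%). These limits count 3 barcodes and bound barcodes with an Mrc1 UMI after thinning, not cells that express it; unthinned, Mrc1 was found in 1 of 213 such barcodes in DATK32, 1 of 339 in MECA-367 and 3 of 193 in rat IgG.

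Plac8 ran the other way, at 40.7% of C1q only against 88.1% of Ly6c2 or Chil3 only barcodes in DATK32, 74.6% against 90.7% in MECA-367, and 47.7% against 80.8% in rat IgG. Plac8 was thus found in C1q only barcodes more often in MECA-367 than in the other libraries. The MECA-367 interval of 62.5 to 84.5 lay above both 22.4 to 61.2 in DATK32 and 35.1 to 60.5 in rat IgG. MECA-367 also stood highest over all thinned Lyz2+ Csf3r- barcodes, at 85.0% against 74.9% in DATK32 and 66.7% in rat IgG. Among Lyz2-negative barcodes, described below, it stood highest in stromal-marked but not in epithelial-marked ones. F13a1 was found in 7.41% against 21.4% in DATK32, 5.97% against 10.5% in MECA-367 and 4.62% against 12.5% in rat IgG, with overlapping intervals. Barcodes with both sides had Plac8 in 100% (11 of 11) of DATK32, 100% (61 of 61) of MECA-367 and 94.4% of rat IgG, and Apoe in 45.5% (DATK32), 67.2% (MECA-367) and 61.1% (rat IgG).

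Of 7 MHC class II genes, which serve antigen presentation to CD4 T cells, Cd74, H2-Aa, H2-Ab1, H2-Eb1 and H2-DMb1 had a higher share in both groups with C1q than in Ly6c2 or Chil3 only barcodes in every library. H2-DMa did not in DATK32, at 14.8% of C1q only against 15.1% of Ly6c2 or Chil3 only barcodes, and Ciita, the class II transactivator, was found in few barcodes and varied in direction. Intervals of C1q only and Ly6c2 or Chil3 only barcodes lay apart in every library for Cd74, H2-Aa, H2-Ab1 and H2-Eb1. For H2-DMb1 they lay apart in MECA-367 alone. Intervals of both-side barcodes overlapped those of Ly6c2 or Chil3 only ones for H2-Ab1, H2-Eb1 and H2-DMb1 in DATK32 (11 both-side barcodes). In rat IgG they overlapped for Cd74 and H2-DMb1. H2-Aa was found in 70.4% of C1q only, 72.7% of both-side and 27.0% of Ly6c2 or Chil3 only barcodes in DATK32. In MECA-367 the C1q only, both-side and Ly6c2 or Chil3 only shares were 82.1%, 67.2% and 23.4%, and in rat IgG they were 89.2%, 83.3% and 34.6%. Hp, the haptoglobin gene and 1 of 18 other monocyte genes listed, was less frequent in C1q only than in Ly6c2 or Chil3 only barcodes. It was found in 14.8% against 38.4% in DATK32, 22.4% against 58.8% in MECA-367 and 12.3% against 31.7% in rat IgG. The listed genes did not all run this way. Tgfbi was found in 59.3% against 54.1% in DATK32, 64.2% against 49.0% in MECA-367 and 55.4% against 63.5% in rat IgG. Dendritic cells also carry MHC class II; at least 2 dendritic markers were found after thinning in 0 of 27 C1q only barcodes in DATK32, 0 of 67 in MECA-367 and 3.08% of 65 in rat IgG. After thinning, at least 2 T cell markers were found in 18.5% of C1q only barcodes in DATK32, 7.46% in MECA-367 and 20.0% in rat IgG. In Ly6c2 or Chil3 only barcodes this was 2.52% (DATK32), 1.17% (MECA-367) and 7.69% (rat IgG). In barcodes with neither side it was 11.1% (DATK32), 4.55% (MECA-367) and 7.28% (rat IgG). The part of T cell RNA in the C1q only group was not tested.

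**Figure D4:**
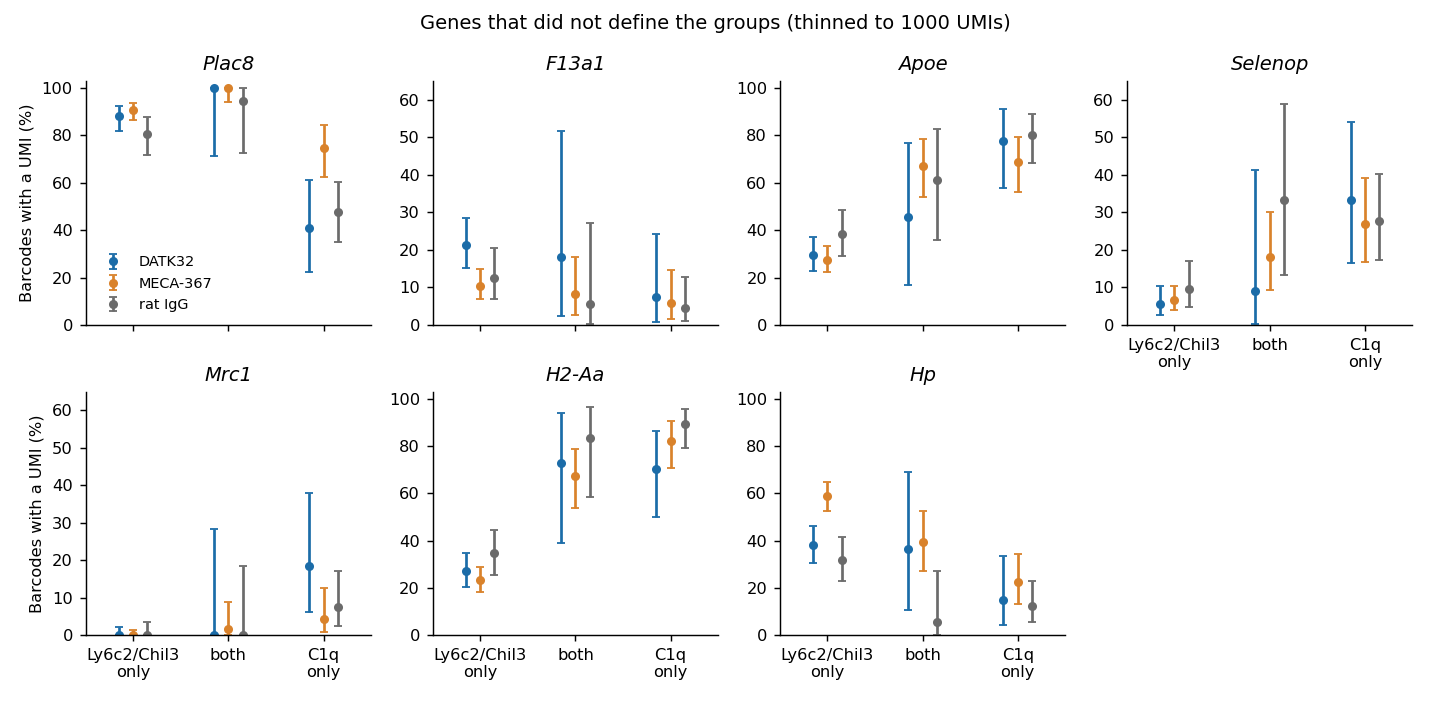
Share of thinned barcodes with a UMI of 7 genes that did not define the groups, with exact 95% binomial intervals, for DATK32, MECA-367 and rat IgG. Apoe, Selenop and H2-Aa lie higher in C1q only than in Ly6c2 or Chil3 only barcodes in each library, and Plac8 and Hp lie lower. Hp is 1 of 18 other monocyte genes listed, which did not all lie lower.

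Other members also differed by the number of C1q UMIs in a barcode. In thinned DATK32 barcodes with 0, 1, 2 to 4 and 5 or more C1q UMIs, the mean Apoe count was 0.545, 2, 3.94 and 11.1 UMIs (312, 15, 16 and 7 barcodes). In MECA-367 it was 0.602, 1.71, 3.78 and 12.5 UMIs (477, 49, 49 and 30 barcodes), and in rat IgG 0.694, 1.86, 5.15 and 17.05 UMIs (310, 21, 40 and 22 barcodes). Apoe was thus higher at each step in each library. The mean H2-Aa count was likewise higher at each step, reaching 8 UMIs in DATK32, 5.63 in MECA-367 and 5.95 in rat IgG at 5 or more C1q UMIs. In those barcodes Plac8 was found in 2 of 7 in DATK32, 23 of 30 (76.7%, 57.7 to 90.1) in MECA-367 and 8 of 22 (36.4%, 17.2 to 59.3) in rat IgG. Ly6c2 was found in 0 of 7 of them in DATK32, 4 of 30 in MECA-367 and 2 of 22 in rat IgG, and Chil3 in 0 of 7 (DATK32), 7 of 30 (MECA-367) and 1 of 22 (rat IgG). The 3 DATK32 bins with C1q hold 15, 16 and 7 barcodes, too few to fix its order.

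The make-up of C1q RNA differed in MECA-367. Of all C1q UMIs in Lyz2+ Csf3r- barcodes, C1qb made up 42.7% (37.3 to 48.3) of 330 UMIs in DATK32, 51.3% (48.6 to 54.0) of 1345 in MECA-367 and 36.8% (32.8 to 40.8) of 585 in rat IgG. C1qa made up 33.0% (DATK32), 27.4% (MECA-367) and 37.3% (rat IgG), and C1qc 24.2% (DATK32), 21.3% (MECA-367) and 25.98% (rat IgG). Per barcode the difference was also seen: among barcodes with 5 or more C1q UMIs, C1qb outnumbered C1qa in 9 of 23 in DATK32, 59 of 83 in MECA-367 and 13 of 44 in rat IgG. The median C1qb share within such barcodes was 35.7% in DATK32, 50% in MECA-367 and 33.3% in rat IgG. All 3 genes were found in 21 of 64 barcodes with any C1q in DATK32, 61 of 180 in MECA-367 and 42 of 122 in rat IgG. C1q was concentrated: barcodes with 5 or more C1q UMIs held 73.9% of it in DATK32, 83.1% in MECA-367 and 73.8% in rat IgG. In other barcodes the C1qb share of C1q UMIs was also highest in MECA-367, but the intervals overlapped. In Lyz2-negative barcodes it was 44.2% (35.1 to 53.5) in DATK32, 46.7% (39.3 to 54.2) in MECA-367 and 40.9% (34.1 to 47.9) in rat IgG. In Lyz2+ barcodes with Csf3r it was 39.5% (30.7 to 48.9) in DATK32, 53.4% (48.2 to 58.6) in MECA-367 and 49.1% (35.1 to 63.2) in rat IgG. UMIs of a barcode are not independent, so these intervals are narrower than the spread between cells.

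C1q RNA was rare in Lyz2-negative barcodes. They were not shown to be free of myeloid cells, so their shares are no measured background. Any C1q gene was found in 0.698% of Lyz2-negative barcodes in DATK32, 1.64% in MECA-367 and 1.15% in rat IgG, at median depths of 1479 (DATK32), 1638 (MECA-367) and 1487 (rat IgG) UMIs, against 15.1% (DATK32), 27.9% (MECA-367) and 21.8% (rat IgG) of Lyz2+ Csf3r- barcodes. Of the C1q UMIs in Lyz2-negative barcodes, 57.5% in DATK32, 44.0% in MECA-367 and 49.0% in rat IgG came from few barcodes. These were 6 (DATK32), 11 (MECA-367) and 14 (rat IgG) barcodes with 5 or more C1q UMIs. Chil3 was at 0.528% (DATK32), 1.41% (MECA-367) and 0.298% (rat IgG) of Lyz2-negative barcodes. Classes of Lyz2-negative barcodes were set by the lineage with the most markers (2 or more). Among those marked as T cells, C1qb was found in 0.495% of DATK32, 0.388% of MECA-367 and 0.914% of rat IgG barcodes.

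The other members were shared with further lineages. Ly6c2 was found in 48.6% of plasma-marked barcodes in DATK32, 56.7% in MECA-367 and 45.3% in rat IgG, at median depths of 4520 (DATK32), 6480 (MECA-367) and 3098 (rat IgG) UMIs, against 49.4% (DATK32), 54.2% (MECA-367) and 33.6% (rat IgG) of Lyz2+ Csf3r- barcodes. Plac8 was found in 57.3% (DATK32), 55.9% (MECA-367) and 64.1% (rat IgG) of epithelial-marked barcodes and in 51.0% (DATK32), 81.3% (MECA-367) and 47.3% (rat IgG) of stromal-marked ones. Apoe was found in 50% (DATK32), 56.6% (MECA-367) and 41.5% (rat IgG) of B-marked barcodes, and Selenop in 38.1% (DATK32), 53.1% (MECA-367) and 33.3% (rat IgG) of stromal-marked ones. The part of such RNA in the levels above was not tested.

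**Figure D5:**
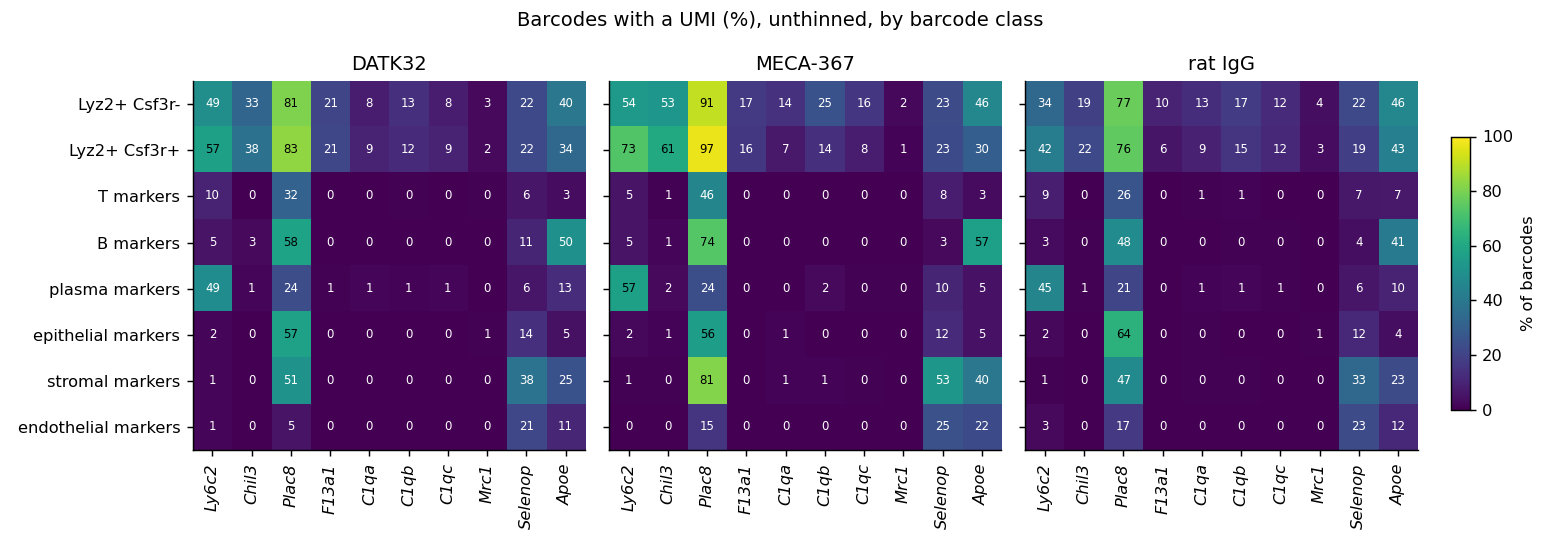
Share of unthinned barcodes with a UMI of each gene (columns) by barcode class (rows), 1 panel per library, with the value in each cell in percent. The C1q genes, F13a1 and Chil3 are near 0 outside both Lyz2+ classes, whereas Ly6c2 is found in plasma-marked, Apoe in B-marked and Selenop in stromal-marked barcodes.

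Lyz2+ barcodes with Csf3r, left out above, numbered 127 in DATK32, 355 in MECA-367 and 86 in rat IgG at median depths of 2053 (DATK32), 3427 (MECA-367) and 1593.5 (rat IgG) UMIs. Chil3 was found in 37.8% (DATK32), 60.6% (MECA-367) and 22.1% (rat IgG) of them and Ly6c2 in 56.7% (DATK32), 73.0% (MECA-367) and 41.9% (rat IgG), each above the share without Csf3r. C1qb was found in 11.8% (DATK32), 13.5% (MECA-367) and 15.1% (rat IgG), and any C1q gene in 13.4% (DATK32), 14.1% (MECA-367) and 19.8% (rat IgG).

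Of 18 other monocyte genes, 16 were measured; 5 were called higher and 0 lower in DATK32 against rat IgG, 8 higher and 0 lower in MECA-367 against rat IgG, and 1 higher and 3 lower in DATK32 against MECA-367. Relative to rat IgG, their median log2 ratio was 0.49 for DATK32 and 0.50 for MECA-367, and DATK32 against MECA-367 gave -0.16. Over all 7489 genes, 1.79% were called higher in DATK32 and 4.87% in MECA-367 against rat IgG. In DATK32 against MECA-367, 5.59% of all genes were called higher and 3.14% lower. Nos2, the inducible nitric oxide synthase, was called higher in both comparisons with rat IgG, at 299 CPM in DATK32, 488 in MECA-367 and 129 in rat IgG (log2 ratios 1.21 and 1.91). Ms4a4c was called higher in both as well (0.90 and 0.62). S100a4 (0.75) and Vcan, the matrix proteoglycan versican (0.60), were called higher in DATK32 against rat IgG and not in MECA-367 against rat IgG; in DATK32 against MECA-367, S100a4 was called higher (1.04) and Vcan was not called (0.47). Ifitm6 (2.41) and Hp (1.58), which neutrophils also express, were called higher in MECA-367 against rat IgG and stood at 0.50 and 0.48 in DATK32 against rat IgG, not called. The 8 neutrophil markers had medians of 0.24 in DATK32 and 1.97 in MECA-367 against rat IgG. Ccr2, the chemokine receptor of monocytes, was not called, at 159 CPM in DATK32, 113 in MECA-367 and 136 in rat IgG.

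Of 22 other macrophage genes, 14 were measured; 0 were called higher and 1 lower in DATK32 against rat IgG, 1 higher and 2 lower in MECA-367 against rat IgG, and 1 higher and 1 lower in DATK32 against MECA-367. Relative to rat IgG, their median log2 ratio was -0.12 for DATK32 and -0.25 for MECA-367. DATK32 against MECA-367 gave 0.06, and all these values lie near the medians of all genes. Over all 7489 genes, 4.74% were called in DATK32 and 18.1% in MECA-367 against rat IgG, and 8.73% in DATK32 against MECA-367. The count of this list in MECA-367 against rat IgG lies near the share over all genes. Trem2, a lipid-sensing receptor, was at 6.47 CPM (7 UMIs) in DATK32, 30.3 CPM (66 UMIs) in MECA-367 and 23.3 CPM (28 UMIs) in rat IgG, and was called lower in DATK32 in both comparisons (-1.71 and -2.06). Cx3cr1, the fractalkine receptor of mature gut macrophages, was at 21.3 CPM in DATK32, 7.80 in MECA-367 and 23.3 in rat IgG. It was called lower in MECA-367 than in rat IgG (-1.55) and higher in DATK32 than in MECA-367 (1.42). Mrc1 had the same levels in MECA-367 (17 UMIs) and rat IgG (28 UMIs), and its call was kept under only 7 of 13 settings. Calls of listed genes were not recomputed under other settings. Cd81 was lower (-0.80) and Ccl8 higher (1.28) in MECA-367 than in rat IgG. Cd163 and Folr2, scavenger and folate receptors of long-lived macrophages, had 0 counts in every library, which allows up to 2.77 (DATK32), 1.38 (MECA-367) and 2.49 (rat IgG) CPM. Of 7 MHC class II genes, 0 were called in DATK32 against rat IgG or against MECA-367, and H2-DMb1 alone was called lower in MECA-367 against rat IgG (-0.59). Relative to rat IgG, the median was -0.12 for DATK32 and -0.41 for MECA-367, and DATK32 against MECA-367 gave 0.18.

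The genes most like the C1q sum over thinned barcodes were Cd74, H2-Eb1, H2-Aa and H2-Ab1, all of antigen presentation, followed by Aif1, a macrophage marker. Their mean Pearson r over the 3 libraries was 0.48, 0.47, 0.46, 0.45 and 0.36, among 1963 genes with a median of 0.0061. The genes most like Ly6c2 plus Chil3 were Lyz2 (0.36), which also set the barcodes, Samhd1 (0.29), Prdx5 (0.29), Fcer1g (0.29) and Il1b (0.28). The points are 350 DATK32, 605 MECA-367 and 393 rat IgG barcodes that share a library and a depth, and the values are given as a description.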

How the data were processed

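The authors deposited raw counts, whole UMIs per gene and barcode, in 3 filtered matrices of 32285 genes; per the submitters' processing notes they used Cell Ranger 6.0.2 and genome build mm10. Per the labels' protocols, viable CD45+ cells were sorted, used for 10x 3' libraries and sequenced together on 1 lane. The annotation and the strand setting are not given in the sources used here. Groups came from the treatment label, 1 library each.

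Counts were summed per library and given as CPM; log2 ratios add 1 count to each gene count and 0.5 barcode to each number of barcodes. Thinning drew UMIs without replacement (seed 1). The 10 genes, the gene lists and the marker lists were chosen with earlier results of these data known. Named genes are the 10 members, list genes that passed the rule or on which a result turns, and the 5 genes most correlated with each sum. Some genes that met this rule are not reported here. Doublets were kept: Scrublet marked 0 barcodes, so removing the highest scores (274 in DATK32, 278 in MECA-367 and 434 in rat IgG) was an alternative. The ratio rule was tested on simulated Poisson counts, which cannot show how it behaves when few barcodes hold many UMIs of a gene. For pairs, only the formula was computed, on simulated independent and nested pairs with answers fixed in advance. Of the 18 settings tried, thinning to 500 UMIs was added after the data were seen. Python 3.11.15, scipy 1.17.1, pandas 2.3.3, scanpy 1.11.5, R 4.3.3 and edgeR 4.0.16 (TMM factors only) were used. Sequences and coordinates are from RefSeq (GRCm38.p6) and GENCODE (GRCm38).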

Additional observations from a re-analysis of the deposited data

Results flagged for a closer look

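Lyz2+ Csf3r- barcodes over the mitochondrial limit, 69 in DATK32, 96 in MECA-367 and 98 in rat IgG, were left out of the levels and shares above and entered only the setting with every deposited barcode. In them, 4 of the 10 genes stood at least 1.5 times above the rat IgG level in DATK32 or MECA-367, with intervals apart. Only higher levels were looked for, and the share of all genes that would pass was not computed. The count is therefore no result about these genes as a set. Ly6c2 was at 254.8 CPM in DATK32 and 157.7 CPM in MECA-367, against 84.1 CPM in rat IgG. Chil3 was at 353.8 CPM in MECA-367, against 157.3 CPM (119.4 to 203.3) in rat IgG. In DATK32 it was at 113.3 CPM (77.5 to 159.9), not above rat IgG, although it was called higher among kept barcodes. C1qb was at 74.4 CPM in MECA-367, against 27.1 CPM in rat IgG. Apoe was at 509.7 CPM in DATK32 and 500.3 CPM in MECA-367, against 301.0 CPM in rat IgG. Among kept Lyz2+ Csf3r- barcodes Apoe was instead lower in both libraries than in rat IgG, with no ratio called. Barcodes over the limit had medians of 3372 UMIs in DATK32, 3691.5 in MECA-367 and 2722.5 in rat IgG.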

How the results depend on the processing

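Of 420 log2 ratios of single genes recomputed under the alternatives, 291 moved by less than their counting error, 129 moved by more, and 0 called ratios changed sign. The count of called genes in MECA-367 against rat IgG was 2 of 10 after thinning to 1000 UMIs, where 13.4% of all tested genes were called. It was also 2 of 10 without barcodes holding markers of other classes, where 14.5% were called. Both counts lie near the share over all genes. Ly6c2 or Chil3 only, MECA-367 against rat IgG, stood at 0.34 with at least 3 Lyz2 UMIs, 0.19 without neutrophil-marked barcodes, 1.11 with 2 UMIs required and 0.24 with all 10 genes used. In DATK32 against rat IgG it stood at 0.78 (thinned to 1000), 0.91 (2 UMIs) and 0.31 (all 10), and in DATK32 against MECA-367 at 0.16 (3 Lyz2 UMIs) and 0.45 (without neutrophil-marked barcodes). C1q only, MECA-367 against rat IgG, stood at -0.12 (without neutrophil-marked barcodes), -1.66 (all 10) and 0.0049 (thinned to 500), and at 0.73 (all 10) in DATK32 against MECA-367. Both sides stood at -0.68 (without other classes) and -1.29 (thinned to 500) in DATK32 against rat IgG, at 1.95 (2 UMIs) and 0.18 (all 10) in MECA-367 against rat IgG, and at -0.30 (all 10) and -2.38 (thinned to 500) in DATK32 against MECA-367. The cause of these moves was not tested. The all 10 setting replaces the genes that define the groups by all members, and thinning drops shallow barcodes. Depth limits Mrc1 most, at 17 to 28 UMIs a library. No paired analysis was possible because each group is 1 library.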
